A study of Mus musculus with 50 samples.

Results

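The mitosis and G2/M genes are 38 genes whose products drive entry into mitosis, build and pull on the spindle, hold back anaphase until chromosomes are attached, and divide the cell. They were taken by gene symbol, and each was read from its probe set with the highest mean among the probe sets annotated with that symbol alone. Of the 38, 37 were measured, among 18193 genes of the whole series, and all 37 passed the filter on dim genes, as did 12883 genes in all. Ccnb1, which encodes cyclin B1, is not analysed here because no probe set carried its symbol alone. The members were counted in 8 roles: cyclin-Cdk engine, mitotic kinases and passengers, spindle checkpoint, anaphase-promoting complex (APC/C) and its substrates, spindle motors and microtubule proteins, kinetochore and centromere, central spindle and cytokinesis, and chromosome and proliferation genes.

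The cells were YAMC, young adult mouse colon cells from the H-2Kb/tsA58 transgenic mouse, which divide in culture at 33 °C through a temperature-sensitive large T antigen. Polysomal RNA, the mRNA carried by several ribosomes at a time, was hybridised to 50 Affymetrix mouse genome arrays. Retroviral infection gave 4 polyclonal populations: mp53/Ras cells carried p53175H and RasV12, mp53 cells carried p53175H and the Neo vector, Ras cells carried RasV12 and the Bleo vector, and bleo/Neo cells carried both empty vectors. The parental YAMC cells had no retrovirus. Each of the 5 groups had 10 arrays, and all groups spent 48 h at 39 °C, with interferon gamma withdrawn, before 24 h in 0% serum, conditions under which the large T antigen is not functional. Each population was derived once, so a difference between populations cannot be told apart from a difference between derivations, and the labels do not say whether the replicates were separate cultures, so p-values measure only the spread between these arrays.

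Cyclins A and B with Cdk1 form the kinase activity that brings a cell into mitosis, and Cdc25 phosphatases switch it on. Polo-like and Aurora kinases then organise centrosomes, spindle and chromosomes, kinetochore proteins link chromosomes to microtubules, the spindle checkpoint restrains the APC/C ubiquitin ligase until attachment is complete, and the central spindle guides the cut between daughter cells. Most of these genes are transcribed together late in the cycle from promoters with CCAAT boxes, bound by NF-Y, and the cell cycle genes homology region TTTGAA, bound by MuvB complexes that either activate with B-Myb and FoxM1 or repress as the DREAM complex, which p53 engages through the Cdk inhibitor p21.

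Promoter windows of 300 bases, 250 before and 50 after the annotated start (RefSeq, GRCm38.p6), were found for 33 of the 38 listed genes, and Ect2 and Prc1 had more than 1 window. TTTGAA on either strand was in 23 of the 33 genes (69.7%), against 17.9% of the 32851 windows of all genes. CCAAT on either strand was in 24 of 33 (72.7%) against 37.4% of all windows, and 20 of 33 (60.6%) held both motifs against 7.0% of all windows. At least 2 CCAAT boxes were in 16 of 33 (48.5%) against 11.7% of all windows, and no TTTGAA overlapped a CCAAT. Below are 7 windows, written 5′ to 3′ on the strand of the gene, with TTTGAA and CCAAT or their reverse complements in capitals. Cenpa (chr5:30666636-30666935, plus strand), Aurka (chr2:172370521-172370820, minus strand), Birc5 (chr11:117848987-117849286, plus strand) and Ccnb2 (chr9:70421505-70421804, minus strand) are shown because they were the 4 members that stood furthest above mp53 cells in mp53/Ras cells. Cdc25b (chr2:131186698-131186997, plus strand) is shown because it was higher in all 3 oncogene populations than in bleo/Neo cells, and Spc25 (chr2:69206164-69206463, minus strand) and Melk (chr4:44300667-44300966, plus strand) because they were lower in all 3.
Cenpa: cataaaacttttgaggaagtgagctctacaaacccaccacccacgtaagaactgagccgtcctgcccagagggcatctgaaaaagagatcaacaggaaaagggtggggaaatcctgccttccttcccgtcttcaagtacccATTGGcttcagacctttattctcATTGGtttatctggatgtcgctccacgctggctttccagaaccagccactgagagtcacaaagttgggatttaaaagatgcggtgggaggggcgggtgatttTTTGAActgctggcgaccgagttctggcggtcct
Aurka: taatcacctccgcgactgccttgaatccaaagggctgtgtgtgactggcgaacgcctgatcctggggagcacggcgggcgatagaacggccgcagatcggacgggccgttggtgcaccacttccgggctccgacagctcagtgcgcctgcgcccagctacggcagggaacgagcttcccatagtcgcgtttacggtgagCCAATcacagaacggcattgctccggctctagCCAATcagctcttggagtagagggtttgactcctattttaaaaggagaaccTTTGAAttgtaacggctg
Birc5: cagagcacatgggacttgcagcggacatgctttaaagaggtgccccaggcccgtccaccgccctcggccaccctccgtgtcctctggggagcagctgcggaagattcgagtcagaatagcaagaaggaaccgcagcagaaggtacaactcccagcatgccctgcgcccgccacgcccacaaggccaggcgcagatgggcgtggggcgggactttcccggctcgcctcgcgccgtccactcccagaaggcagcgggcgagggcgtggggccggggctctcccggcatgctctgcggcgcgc
Ccnb2: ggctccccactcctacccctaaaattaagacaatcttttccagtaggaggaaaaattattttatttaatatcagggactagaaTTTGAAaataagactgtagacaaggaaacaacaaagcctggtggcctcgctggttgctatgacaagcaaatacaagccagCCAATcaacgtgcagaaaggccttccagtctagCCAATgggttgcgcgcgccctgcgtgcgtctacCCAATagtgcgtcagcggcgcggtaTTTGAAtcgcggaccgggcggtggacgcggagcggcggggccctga
Cdc25b: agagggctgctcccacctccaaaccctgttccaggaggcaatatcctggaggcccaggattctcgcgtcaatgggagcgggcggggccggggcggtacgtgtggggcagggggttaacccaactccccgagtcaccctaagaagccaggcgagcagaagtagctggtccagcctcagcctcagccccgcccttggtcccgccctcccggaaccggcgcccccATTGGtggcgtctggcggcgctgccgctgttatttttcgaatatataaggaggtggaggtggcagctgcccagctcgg
Spc25: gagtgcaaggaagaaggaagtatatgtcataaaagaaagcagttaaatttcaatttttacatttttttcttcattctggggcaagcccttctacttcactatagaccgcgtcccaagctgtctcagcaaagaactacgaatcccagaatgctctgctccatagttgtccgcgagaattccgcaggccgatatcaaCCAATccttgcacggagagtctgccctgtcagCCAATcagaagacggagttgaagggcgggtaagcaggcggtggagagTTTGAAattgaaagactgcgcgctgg
Melk: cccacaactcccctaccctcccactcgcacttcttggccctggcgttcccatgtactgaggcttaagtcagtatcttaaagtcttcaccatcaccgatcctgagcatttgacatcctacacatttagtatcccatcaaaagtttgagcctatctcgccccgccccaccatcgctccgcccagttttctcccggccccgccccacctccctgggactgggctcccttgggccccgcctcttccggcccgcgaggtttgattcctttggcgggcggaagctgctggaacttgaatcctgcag
Cenpa, Aurka, Ccnb2 and Spc25 held both motifs, Cdc25b held a single CCAAT box and no TTTGAA, and Birc5 and Melk held neither. Of the 5 members lower in all 3 oncogene populations than in bleo/Neo cells, Spc25 held both motifs and Melk, Mad2l1, Pttg1 and Nuf2 held neither. Birc5 and Nusap1 also held neither and were not lower in all 3. The 5 were picked by their values against the same bleo/Neo arrays, and a link of level to motif was not tested. For Spc25 and Pttg1, passing in all 3 rested on the choice of probe set. With the mean of its probe sets Spc25 differed by −0.10 in Ras cells and did not pass (limma, adjusted p = 0.153). With its most variable probe set Pttg1 differed by 0.014 in mp53/Ras and 0.002 in Ras cells. A match is a run of letters and shows no binding.

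Facts of the whole series touch these results at a few points. The 4 arrays YAMC 2, Ras 10, mp53 8 and mp53 10 lay nearer to the mean of another population than to their own over all tested genes: YAMC 2 and Ras 10 to mp53, mp53 8 to YAMC and mp53 10 to Ras. Counts are therefore also given over the other 46 arrays. The simple-epithelium keratins Krt8 and Krt18 were bright in every population, with group means from 11.75 to 12.94 for Krt8 and from 10.54 to 12.67 for Krt18 on the log2 scale, while Cdh1 (3.95 to 4.31), Vil1 (5.24 to 5.58) and Lgr5 were dim. Krt19 varied more, with means of 9.78 in mp53/Ras, 8.44 in mp53, 10.27 in Ras, 11.54 in bleo/Neo and 9.33 in YAMC cells. In mp53/Ras against bleo/Neo cells Krt18 (1.43), Krt8 (0.69) and Epcam (0.34) rose. In that comparison Krt19 (−1.76) and Krt20 (−0.15) fell, and Cldn3, Cldn7 and Muc2 did not pass. Of the epithelial and colon markers 8 of 17 passed the filter, against 8 of 12 fibroblast and smooth muscle markers, which included Col1a1 (means of 12.40 to 13.29) and Col3a1 (12.35 to 13.43). Col1a2 stood apart in the control, with means of 12.41 in mp53/Ras, 13.06 in mp53, 12.08 in Ras, 8.69 in bleo/Neo and 13.30 in YAMC cells, and Dcn and Cnn1 differed by −2.23 and −1.01 in mp53/Ras against bleo/Neo cells. Of 7 endothelial markers Kdr (7.08 to 7.99) and Tek (5.36 to 7.11) passed the filter and Pecam1 (4.91 to 5.33) did not, and of 8 immune cell markers Cd68 (8.41 to 9.96), Csf1r (7.53 to 8.02), Cd3e and Lyz2 passed and Ptprc (5.39 to 5.54) did not. Tek and Cd68 fell in mp53/Ras against bleo/Neo cells (−1.75 and −1.55 log2), without overlap of arrays (limma, adjusted p = 2.02e-15 and 3.21e-10). Tek was dim in mp53/Ras cells, with a mean of 5.36 where the table median was 6.44. The other tested markers of these lists did not follow as far. Kdr differed by −0.28 with overlap, and Csf1r (0.16), Cd3e (0.05) and Lyz2 (0.001) did not pass. Of the 8 tested fibroblast and smooth muscle markers, 6 were lower and 1 higher in mp53/Ras than in mp53 cells. Of all tested genes 23.8% were lower and 23.3% higher there. Against bleo/Neo cells 3 of the 8 were higher and 3 lower in mp53/Ras cells, with 26.7% higher and 27.9% lower over all tested genes. The part of these markers in the results was not tested.

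**Figure D1:**
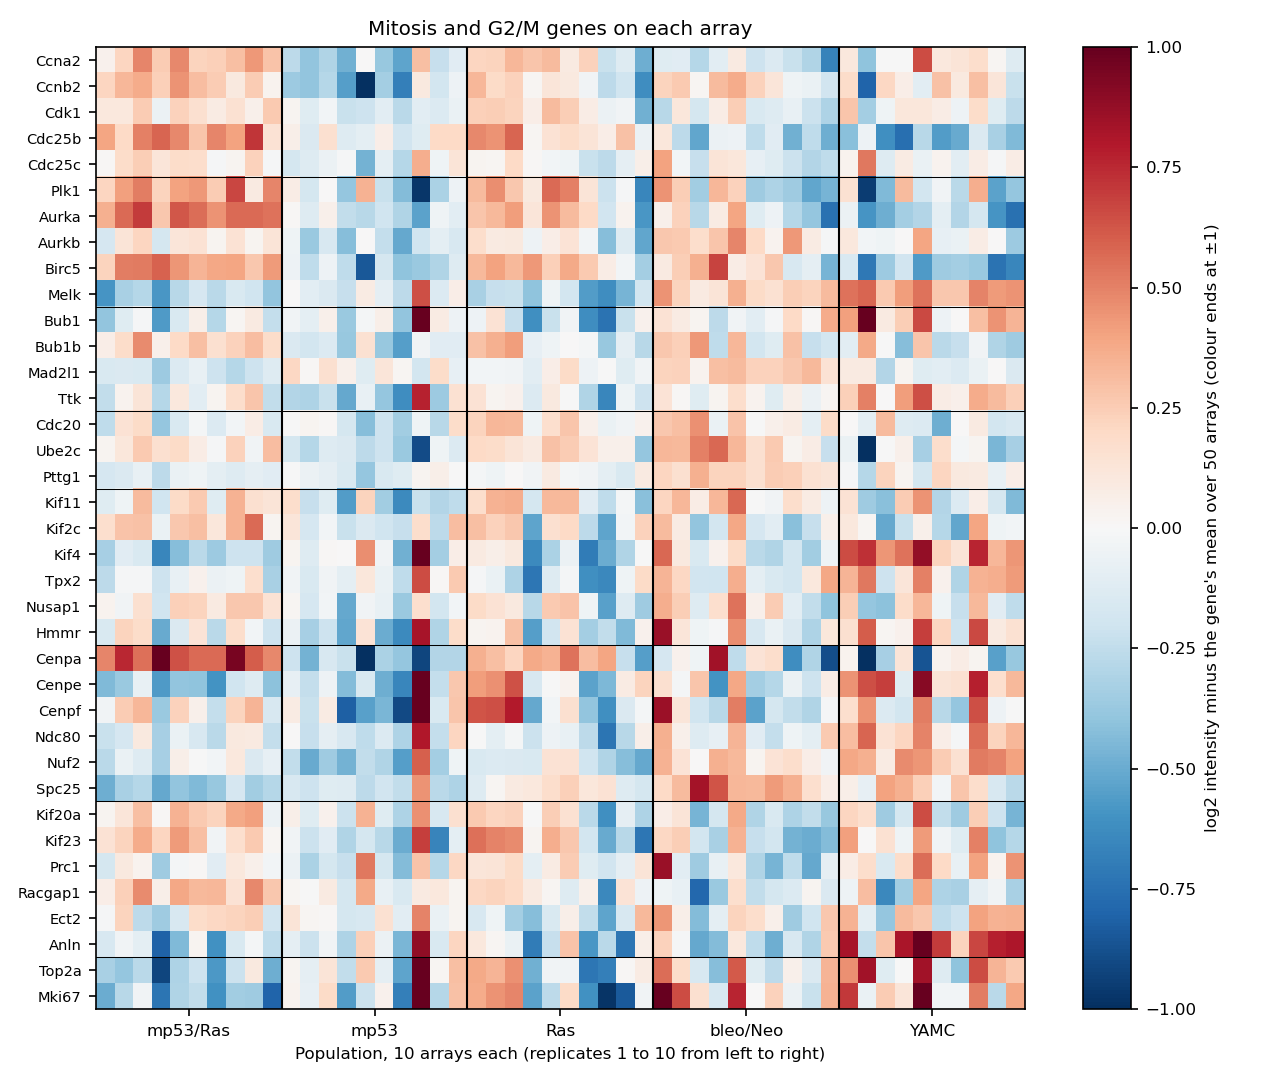
Level of each of the 37 measured genes (rows, grouped by role) on each of the 50 arrays (columns), as log2 intensity minus the gene's mean over all arrays, from blue (lower) to red (higher), with the colour ending at ±1. Cenpa, Aurka and Birc5 are red across the 10 mp53/Ras arrays, Melk and Spc25 are blue there, and array mp53 8 is red for Mki67, Top2a, Cenpe and Bub1 but blue for Plk1, Cenpa and Ube2c.

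The first question was how the double oncogene population differed from the vector control. The mitosis genes did not move as a block: 11 of 37 were higher and 8 lower in mp53/Ras than in bleo/Neo cells, and 18 did not pass the test (limma, Benjamini-Hochberg adjusted p under 0.05). Over all tested genes 54.6% passed, with 26.7% higher and 27.9% lower, so the members' share of 51.4% was near the background. Their median log2 difference was −0.03, against 0.01 for all tested genes, and none differed 2-fold. The rises were 3 of 5 engine genes, 3 of 5 kinases and passengers, 3 of 6 cytokinesis genes, Cenpa and Kif2c, and the falls were Melk, Mad2l1, Pttg1, Cdc20, Spc25, Nuf2, Mki67 and Top2a.

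In the cyclin-Cdk engine 3 of 5 measured members rose and none fell. Cdc25b, a phosphatase that activates Cdk1, had lowest, median and highest levels of 9.12, 9.42 and 9.69 (log2) in mp53/Ras, 8.78, 8.95 and 9.17 in mp53, 8.92, 9.14 and 9.55 in Ras, 8.45, 8.72 and 9.09 in bleo/Neo, and 8.22, 8.54 and 8.93 in YAMC cells. All 10 mp53/Ras arrays lay above all bleo/Neo and all YAMC arrays, and the difference from bleo/Neo was 0.66 ± 0.09 log2 (SE of the limma fit, n = 10 arrays per group, adjusted p = 1.03e-08). Ccna2, the cyclin A of S phase and mitotic entry, rose by 0.50 ± 0.10 log2 (limma, adjusted p = 3.9e-05), although its other probe set above the filter differed by 0.05. Cdk1, the mitotic kinase itself, was at 11.96, 12.15 and 12.28 in mp53/Ras, 11.74, 11.90 and 12.04 in mp53, 11.53, 12.16 and 12.34 in Ras, 11.70, 11.87 and 12.26 in bleo/Neo, and 11.68, 12.03 and 12.29 in YAMC cells. Its groups overlapped, and it rose by 0.23 ± 0.08 log2 over bleo/Neo (limma, adjusted p = 0.0109). Cyclin B2, encoded by Ccnb2, differed by 0.13 and the phosphatase gene Cdc25c by 0.17, and neither passed.

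Among the mitotic kinases and passengers 3 of 5 rose and 1 fell. Aurka, the Aurora kinase of centrosomes and spindle poles, was at 10.30, 10.60 and 10.73 in mp53/Ras, 9.50, 9.87 and 10.08 in mp53, 9.45, 10.27 and 10.48 in Ras, 9.29, 9.95 and 10.43 in bleo/Neo, and 9.29, 9.72 and 9.97 in YAMC cells. Every mp53/Ras array was above every mp53 and YAMC array, and Aurka rose by 0.63 ± 0.11 log2 over bleo/Neo (limma, adjusted p = 2.94e-06). Birc5, which encodes survivin of the chromosomal passenger complex, was at 11.26, 11.45 and 11.63 in mp53/Ras, 10.19, 10.78 and 10.98 in mp53, 10.70, 11.33 and 11.47 in Ras, 10.57, 11.14 and 11.71 in bleo/Neo, and 10.30, 10.66 and 10.88 in YAMC cells. It too separated mp53/Ras from mp53 and from YAMC, while overlapping Ras and bleo/Neo. Plk1, the polo-like kinase of mitotic entry, rose by 0.48 ± 0.15 log2 over bleo/Neo, Birc5 by 0.30 ± 0.10, and Aurkb, the kinase of the passenger complex, differed by −0.16 without passing. Melk, a kinase of dividing and progenitor cells, ran the other way, at 9.16, 9.47 and 9.59 in mp53/Ras, 9.48, 9.65 and 10.39 in mp53, 9.13, 9.47 and 9.70 in Ras, 9.84, 9.97 and 10.19 in bleo/Neo, and 10.01, 10.19 and 10.33 in YAMC cells. All mp53/Ras and all Ras arrays were below all bleo/Neo and YAMC arrays, and Melk fell by 0.56 ± 0.08 log2 in mp53/Ras (limma, adjusted p = 5e-08).

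**Figure D2:**
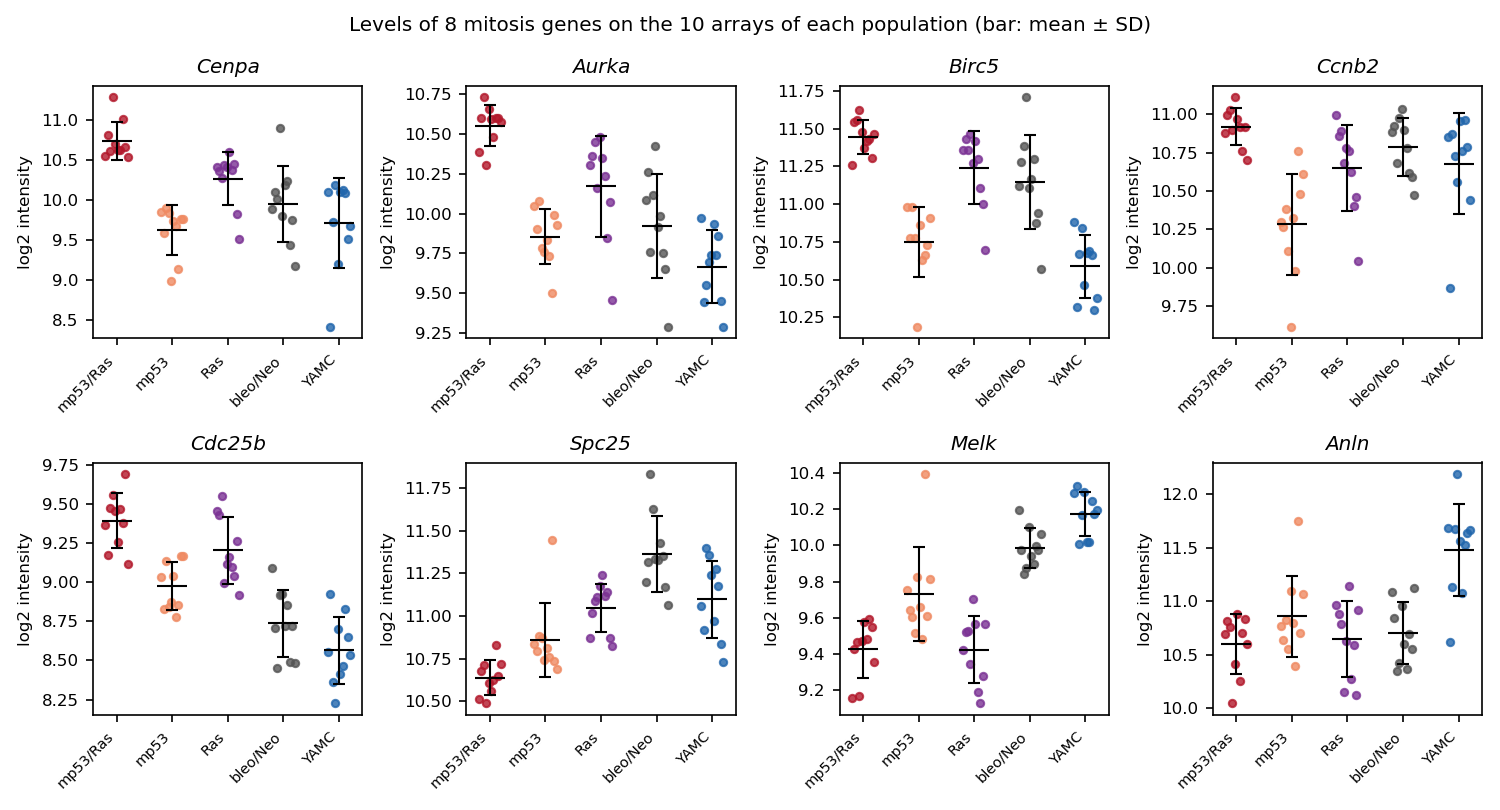
Log2 intensity of 8 mitosis genes on each array, by population from mp53/Ras on the left to YAMC on the right, with the bar at the mean ± SD of 10 arrays. Cenpa, Aurka and Birc5 in mp53/Ras lie wholly above mp53 and YAMC, Cdc25b and Spc25 in mp53/Ras do not overlap bleo/Neo, and Anln is highest in YAMC.

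Of the 4 spindle checkpoint genes 1 fell and none rose. Mad2l1, the checkpoint protein that binds Cdc20, was at 11.27, 11.47 and 11.55 in mp53/Ras, 11.45, 11.66 and 11.84 in mp53, 11.50, 11.59 and 11.82 in Ras, 11.66, 11.86 and 11.95 in bleo/Neo, and 11.33, 11.54 and 11.72 in YAMC cells. The mp53/Ras and bleo/Neo arrays did not overlap, and Mad2l1 fell by 0.41 ± 0.05 log2 (limma, adjusted p = 1.4e-09). The kinases Bub1 (−0.20) and Ttk (−0.03) and the checkpoint protein Bub1b (0.16) did not pass.

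For the APC/C genes 2 of 3 fell. Pttg1, encoding securin, which holds separase inactive until the APC/C destroys it, was at 13.05, 13.20 and 13.27 in mp53/Ras, 12.92, 13.23 and 13.36 in mp53, 13.16, 13.28 and 13.40 in Ras, 13.44, 13.53 and 13.66 in bleo/Neo, and 13.03, 13.36 and 13.53 in YAMC cells. All arrays of the 3 oncogene populations were below all bleo/Neo arrays. The fall in mp53/Ras was 0.33 ± 0.05 log2 (limma, adjusted p = 8.8e-08), but the other Pttg1 probe sets above the filter differed by −0.05 and 0.01. Cdc20, the APC/C coactivator released by the checkpoint, fell by 0.22 ± 0.08 log2 (limma, adjusted p = 0.0202). Ube2c, the ubiquitin-conjugating enzyme of the APC/C, was at 12.22, 12.39 and 12.56 in mp53/Ras, 11.36, 12.06 and 12.21 in mp53, 11.87, 12.39 and 12.55 in Ras, 12.03, 12.55 and 12.83 in bleo/Neo, and 11.15, 12.21 and 12.43 in YAMC cells. It stood clear of mp53 only, and its difference from bleo/Neo, −0.10, did not pass.

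Among the 6 spindle motor and microtubule genes only Kif2c, a microtubule-depolymerising kinesin, passed, with a rise of 0.30 ± 0.11 log2 (limma, adjusted p = 0.0241). Its other probe sets above the filter differed by −0.13, 0.45 and 0.21. Tpx2, which activates Aurora A on the spindle, was at 9.67, 9.94 and 10.16 in mp53/Ras, 9.73, 9.95 and 10.64 in mp53, 9.27, 9.89 and 10.18 in Ras, 9.79, 9.99 and 10.38 in bleo/Neo, and 9.68, 10.33 and 10.52 in YAMC cells, so that all populations overlapped. Kif4, a chromosome-arm kinesin, was at 7.97, 8.32 and 8.51 in mp53/Ras, 8.14, 8.62 and 9.64 in mp53, 7.92, 8.44 and 8.71 in Ras, 8.27, 8.52 and 9.19 in bleo/Neo, and 8.74, 9.11 and 9.50 in YAMC cells. Its mp53/Ras and Ras arrays were all below the YAMC arrays but overlapped bleo/Neo (−0.27, not passed). Kif11 (the bipolar spindle kinesin), Nusap1 and Hmmr (microtubule-binding proteins) differed by −0.07, 0.05 and −0.14 without passing.

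At the kinetochore 1 of 6 rose and 2 fell. Cenpa, the centromeric histone, was at 10.54, 10.65 and 11.29 in mp53/Ras, 8.99, 9.76 and 9.91 in mp53, 9.52, 10.39 and 10.61 in Ras, 9.18, 9.96 and 10.90 in bleo/Neo, and 8.42, 9.91 and 10.19 in YAMC cells. The mp53/Ras arrays lay above all mp53 and YAMC arrays, and the rise over bleo/Neo was the largest among the members, 0.79 ± 0.17 log2 (limma, adjusted p = 0.000117). Cenpa had 3 probe sets, of which 1 passed the filter on dim genes, and over the mean of all 3 the difference was 0.16 (limma, adjusted p = 0.161). Spc25, a subunit of the Ndc80 complex that grips microtubules, was at 10.49, 10.64 and 10.83 in mp53/Ras, 10.69, 10.80 and 11.45 in mp53, 10.82, 11.10 and 11.24 in Ras, 11.07, 11.33 and 11.83 in bleo/Neo, and 10.73, 11.12 and 11.40 in YAMC cells. No mp53/Ras array overlapped a bleo/Neo array, and the fall of 0.73 ± 0.09 log2 was the largest among the members (limma, adjusted p = 3.25e-10), while the other Spc25 probe set above the filter differed by −0.04. Nuf2, another Ndc80 complex subunit, was at 9.12, 9.38 and 9.56 in mp53/Ras, 8.90, 9.13 and 10.05 in mp53, 8.94, 9.30 and 9.60 in Ras, 9.41, 9.59 and 9.81 in bleo/Neo, and 9.53, 9.85 and 9.97 in YAMC cells. Its groups overlapped and it fell by 0.24 ± 0.09 log2 (limma, adjusted p = 0.0246). Cenpe, a kinetochore motor, was at 8.36, 8.56 and 8.89 in mp53/Ras, 8.31, 8.77 and 10.38 in mp53, 8.43, 9.02 and 9.60 in Ras, 8.36, 8.92 and 9.34 in bleo/Neo, and 8.84, 9.35 and 9.87 in YAMC cells, with overlap throughout. The differences of Cenpe (−0.30), Cenpf (0.09) and Ndc80 (−0.15) from bleo/Neo did not pass.

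In central spindle and cytokinesis 3 of 6 rose and none fell. Racgap1 and Kif23, the partners of centralspindlin, rose by 0.46 ± 0.11 and 0.36 ± 0.14 log2, and Kif20a, a kinesin of the central spindle, by 0.35 ± 0.12 (limma, adjusted p = 0.00025, 0.0295 and 0.0118). Prc1, which bundles antiparallel microtubules, Ect2, the exchange factor for RhoA, and Anln, the anillin scaffold of the contractile ring, did not pass (0.08, 0.00 and −0.10). Anln was at 10.04, 10.70 and 10.88 in mp53/Ras, 10.40, 10.78 and 11.75 in mp53, 10.12, 10.71 and 11.14 in Ras, 10.35, 10.65 and 11.12 in bleo/Neo, and 10.62, 11.60 and 12.19 in YAMC cells, so it was high in most YAMC arrays, with medians from 10.65 to 10.78 in the other populations. Both chromosome and proliferation genes fell. Mki67, the Ki-67 proliferation antigen, was at 9.38, 9.82 and 10.14 in mp53/Ras, 9.50, 10.15 and 11.90 in mp53, 9.20, 10.03 and 10.66 in Ras, 9.95, 10.37 and 11.28 in bleo/Neo, and 9.91, 10.37 and 11.29 in YAMC cells. Top2a, topoisomerase IIα, was at 9.76, 10.37 and 10.78 in mp53/Ras, 10.15, 10.71 and 11.82 in mp53, 9.96, 10.67 and 11.14 in Ras, 10.26, 10.65 and 11.29 in bleo/Neo, and 10.28, 10.98 and 11.52 in YAMC cells. All groups overlapped for both, and the falls in mp53/Ras were 0.70 ± 0.21 log2 for Mki67 and 0.42 ± 0.17 for Top2a (limma, adjusted p = 0.00353 and 0.0285). With the mean of its probe sets Top2a differed by −0.13 and did not pass (limma, adjusted p = 0.122).

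**Figure D3:**
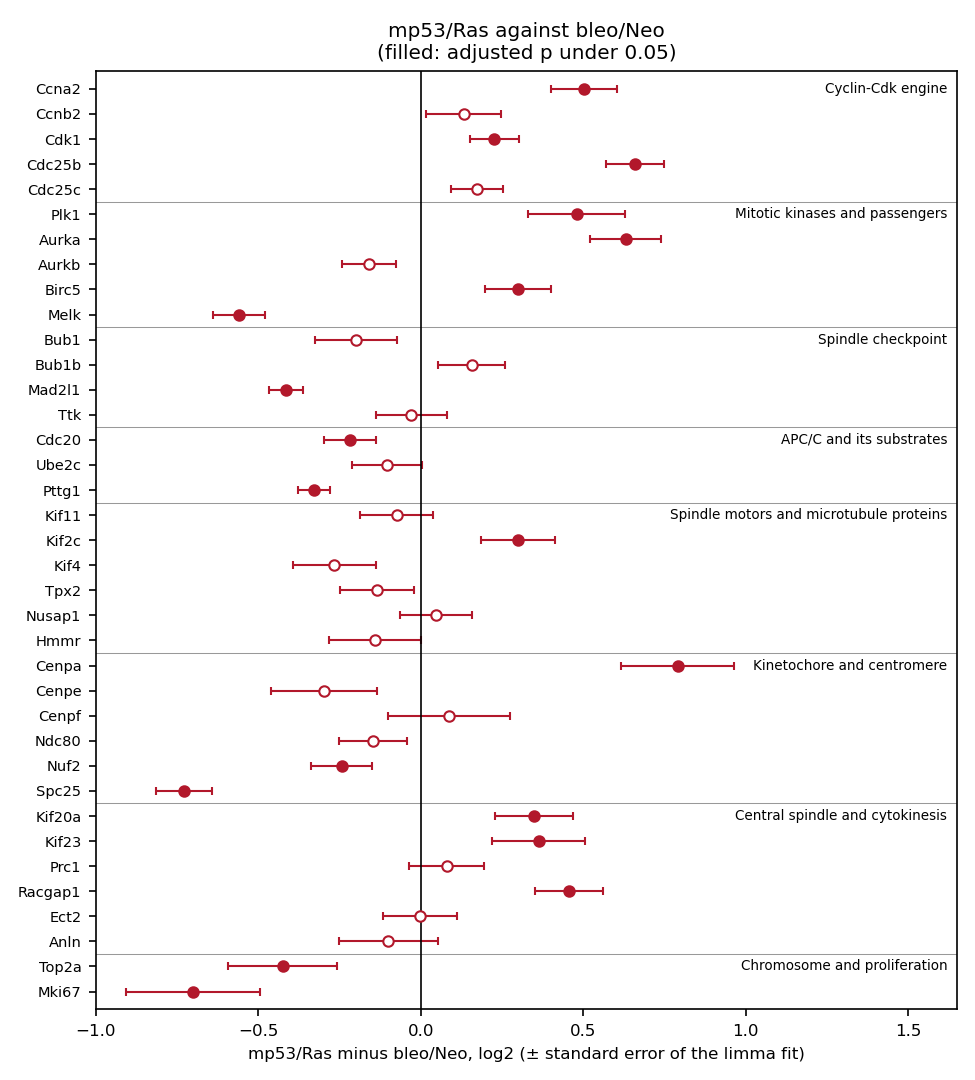
Difference of mp53/Ras from bleo/Neo (log2, horizontal axis) for the 37 measured genes, grouped by role, with error bars of 1 SE from limma and filled points for an adjusted p under 0.05. Filled points on the right run from Cdk1 at 0.23 to Cenpa at 0.79, and those on the left from Cdc20 at −0.22 to Spc25 at −0.73.

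Arrays of the 2 populations did not overlap for 5 members, Cdc25b above and Melk, Mad2l1, Pttg1 and Spc25 below, against 17.3% of all tested genes (6.99% higher and 10.4% lower). Over the 46 arrays 22 members passed, 12 higher and 10 lower. Leaving out 1 array ended 5 of the 19 calls: Cdc20 (mp53/Ras 4 or bleo/Neo 3), Kif23 (mp53/Ras 5 or bleo/Neo 8, 9 or 10), Kif2c (mp53/Ras 9 or bleo/Neo 3 or 8), Nuf2 (mp53/Ras 4) and Top2a (mp53/Ras 4 or bleo/Neo 1, 5 or 10), with limma adjusted p up to 0.0541, 0.0595, 0.0548, 0.0523 and 0.0673. With another choice of probe set (the mean of all, or the most variable) the calls of Cdc20, Pttg1, Cenpa, Kif23 and Top2a also ended. The limma adjusted p ran from 0.0752 to 0.927, the highest for Pttg1 with its most variable probe set. In bulk polysomal RNA, fewer cells in mitosis, less RNA per cell and a smaller share of that RNA on polysomes cannot be told apart.

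In mp53 cells the members that passed against the vector control were mostly lower. In mp53 against bleo/Neo cells 12 of 37 members passed, 11 lower and 1 higher. Of all tested genes 35.4% passed, 16.5% higher and 18.9% lower. The median member differed by −0.10 log2, against −0.02 for all tested genes, and 28 of 37 differences were negative. Spc25 fell by 0.51 ± 0.09 log2, Ccnb2 by 0.50 ± 0.12 and Ube2c by 0.50 ± 0.11 (limma, adjusted p = 3.56e-06, 0.000434 and 0.000185). Ccnb2, the cyclin B2 gene, was at 10.70, 10.92 and 11.11 in mp53/Ras, 9.61, 10.31 and 10.76 in mp53, 10.04, 10.72 and 11.00 in Ras, 10.47, 10.83 and 11.03 in bleo/Neo, and 9.86, 10.77 and 10.96 in YAMC cells. The mp53 arrays were the low ones, although they overlapped bleo/Neo. Aurkb (−0.44), Nuf2 (−0.40), Birc5 (−0.40), Kif11 (−0.39), Pttg1 (−0.30), Cdc20 (−0.27), Melk (−0.25) and Mad2l1 (−0.19) also fell, and Cdc25b rose by 0.24 ± 0.09 log2. All 3 APC/C genes were thus among the falls, and none of the 6 cytokinesis genes passed. Of the falling members, Birc5, Ube2c, Mad2l1, Spc25, Cdc20, Aurkb and Pttg1 were also higher in bleo/Neo than in YAMC cells. Among them only Aurkb (−0.22) and Spc25 (−0.24) passed as lower in mp53 than in YAMC cells. The arrays did not overlap for 1 member, Pttg1, against 4.52% of all tested genes (2.48% higher and 2.04% lower), and the other Spc25 probe set above the filter differed by 0.07. The Cdc25b call ended without any 1 of 6 arrays (mp53 3, 9 or 10, or bleo/Neo 3, 8 or 10, limma adjusted p up to 0.0722), and over the 46 arrays 16 members passed, 15 of them lower. Kif11 did not pass with the mean of all probe sets (−0.21) or with the most variable one (−0.22).

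Fewer members passed with activated Ras alone. In Ras against bleo/Neo cells 7 of 37 fell (18.9%) and 2 rose (5.41%), while 41.1% of all tested genes passed, 19.7% higher and 21.4% lower. The balance turned with array weights in the fit, to 9 higher and 5 lower. Melk fell by 0.56 ± 0.08 log2 (limma, adjusted p = 9.15e-08), and Nuf2 (−0.33), Spc25 (−0.32), Tpx2 (−0.29), Aurkb (−0.28), Mad2l1 (−0.24) and Pttg1 (−0.23) fell with it. Cdc25b rose by 0.47 ± 0.09 and Ccna2 by 0.29 ± 0.10 log2 (limma, adjusted p = 2.15e-05 and 0.0185). Melk and Pttg1 were the 2 members without overlap, against 6.81% of all tested genes (3.31% higher and 3.49% lower). This count was open to single arrays: it was 14 without bleo/Neo 4. With the 4 arrays nearer to another population left out together it was 16, 6 higher and 10 lower. The calls of Ccna2 (without bleo/Neo 10, limma adjusted p = 0.053) and Tpx2 (without any 1 of 8 arrays, limma adjusted p up to 0.0907) ended, and with the mean of all probe sets Ccna2 (0.06), Spc25 (−0.10), Tpx2 (−0.14) and Pttg1 (−0.09) did not pass. The 3 comparisons above share the bleo/Neo arrays.

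Much of the machinery was higher in mp53/Ras than in mp53 cells. In mp53/Ras against mp53 cells 15 of 37 members rose and 5 fell, while 47.1% of all tested genes passed, 23.3% higher and 23.8% lower. The median difference of the members was 0.19 log2, against 0.01 for all tested genes. All 5 engine genes rose, from Cdc25c (0.19 ± 0.08) to Ccnb2 (0.64 ± 0.12), and 4 of 5 kinases and passengers rose, Aurka by 0.70 ± 0.11, Birc5 by 0.69 ± 0.10, Plk1 by 0.58 ± 0.15 and Aurkb by 0.28 ± 0.08. Cenpa rose by 1.12 ± 0.17 log2 (limma, adjusted p = 5.18e-07), the only member to differ 2-fold here. Bub1b (0.41), Ube2c (0.40), Kif23 (0.38), Kif11 (0.32) and Kif2c (0.30) made up the remaining rises, and the falls were Top2a (−0.45), Kif4 (−0.37), Melk (−0.31), Mad2l1 (−0.22) and Spc25 (−0.22). Aurka, Birc5, Ube2c and Cenpa did not overlap between the populations, 4 members against 11.0% of all tested genes (4.14% higher and 6.87% lower). Over the 46 arrays 21 members passed, 19 higher and only Melk and Mad2l1 lower, and Kif4 (−0.25), Spc25 (−0.17) and Top2a (−0.30) no longer passed (limma, adjusted p = 0.0841, 0.0823 and 0.124). With the most variable probe set Aurkb (0.09), Bub1b (0.23), Kif2c (0.27) and Kif23 (0.28) did not pass, nor did Kif23 with the mean of all (0.14). The calls of Kif4, Spc25, Top2a, Cdc25c, Kif23 and Kif2c ended without any 1 of 1, 3, 2, 12, 2 and 2 arrays, mp53 8 among them for the first 3 genes (limma adjusted p up to 0.0595, 0.107, 0.0767, 0.119, 0.0643 and 0.0618).

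Few of these genes differed between mp53/Ras and Ras cells. In mp53/Ras against Ras cells 2 rose and 2 fell, while 21.6% of all tested genes passed, 9.12% higher and 12.5% lower. Cenpa rose by 0.47 ± 0.17 log2 and Aurka by 0.38 ± 0.11, and Spc25 fell by 0.41 ± 0.09 and Mad2l1 by 0.17 ± 0.05 (limma, adjusted p = 0.0414, 0.00854, 0.000299 and 0.013). No member separated the 2 populations without overlap, against 4.31% of all tested genes (1.01% higher and 3.3% lower). The Cenpa call ended without any 1 of 7 arrays (mp53/Ras 2, 4, 5 or 8, or Ras 3, 9 or 10, limma adjusted p up to 0.1) and with the mean of its probe sets (0.03), and the other Spc25 probe set differed by −0.16.

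The vector control itself differed from the parental cells. In bleo/Neo against YAMC cells 7 members rose and 7 fell, while 37.4% of all tested genes passed, 20.0% higher and 17.4% lower. Birc5 rose by 0.56 ± 0.10 log2, Ube2c by 0.44 ± 0.11 and Mad2l1 by 0.29 ± 0.05, with Spc25 (0.27), Cdc20 (0.22), Aurkb (0.22) and Pttg1 (0.19), so all 3 APC/C genes were among the rises. Anln fell by 0.78 ± 0.15 log2, Kif4 by 0.55 ± 0.13 and Cenpe by 0.47 ± 0.16 (limma, adjusted p = 5.14e-05, 0.000522 and 0.0189), with Prc1 (−0.30), Ccna2 (−0.27), Ttk (−0.27) and Ndc80 (−0.26). Cenpe differed by only −0.24 with the mean of its probe sets and −0.01 with the most variable one (limma, adjusted p = 0.273 and 0.981), and with the mean Ccna2 (−0.22), Spc25 (0.12) and Prc1 (−0.15) did not pass either. For all 14 the arrays overlapped, against 4.88% of all tested genes without overlap (2.38% higher and 2.51% lower). Of these calls, those of Aurkb, Ccna2, Cdc20, Ndc80, Prc1 and Ttk ended without any 1 of 3, 2, 2, 12, 8 and 12 arrays (limma adjusted p up to 0.0808, 0.0929, 0.073, 0.0844, 0.0754 and 0.0955).

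Against the parental cells mp53/Ras differed for more members than in any other comparison made here, and for more of all tested genes as well. Of 37 members 10 rose and 14 fell, while 57.8% of all tested genes passed, 29.1% higher and 28.7% lower. Cenpa (1.03 ± 0.17 log2), Aurka (0.89 ± 0.11), Birc5 (0.86 ± 0.10) and Cdc25b (0.83 ± 0.09) lay above all YAMC arrays on every array, and Melk (−0.75 ± 0.08) and Kif4 (−0.82 ± 0.13) below, 6 members against 16.1% of all tested genes without overlap (7.13% higher and 8.97% lower). Anln fell by 0.88 ± 0.15 and Cenpe by 0.77 ± 0.16 log2, and all 4 checkpoint genes passed, Bub1b higher (0.33) and Bub1 (−0.51), Ttk (−0.30) and Mad2l1 (−0.12) lower. With the mean of its 3 probe sets Cenpa differed by 0.16 and did not pass (limma, adjusted p = 0.148), nor did Top2a (−0.03) and Ccna2 (0.06), and Cenpe (−0.47) did not pass with the most variable probe set. Pttg1, among the falls at −0.135, was 0.335 higher in mp53/Ras with its most variable probe set (limma, adjusted p = 0.0107). The calls of Ccna2, Mad2l1 and Tpx2 ended without any 1 of 36, 9 and 2 arrays (limma adjusted p up to 0.125, 0.0947 and 0.0532).

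In mp53 against YAMC cells 12 members fell and 1 rose, while 22.9% of all tested genes passed, 11.1% higher and 11.8% lower. Anln (−0.62 ± 0.15), Nuf2 (−0.60 ± 0.09), Cenpe (−0.48 ± 0.16) and Ttk (−0.47 ± 0.11) fell most, and Cdc25b rose by 0.41 ± 0.09 log2. No member separated mp53 from YAMC, against 0.241% of all tested genes (0.155% higher and 0.0854% lower). The count was 8 without mp53 7 and 19 over the 46 arrays, 17 of them lower, and the calls of Aurkb, Ccna2, Cenpe, Hmmr and Spc25 ended without any 1 of 24, 3, 6, 11 and 11 arrays (limma adjusted p up to 0.115, 0.0711, 0.0716, 0.0991 and 0.0824). These 5 calls also ended with the mean of all probe sets (limma adjusted p from 0.0606 to 0.525). In Ras against YAMC cells 6 rose and 10 fell, while 42.7% of all tested genes passed, 21.5% higher and 21.2% lower. The count over the 46 arrays was 19, with 7 higher and 12 lower, against 46.8% of all tested genes. Birc5 (0.65 ± 0.10), Cdc25b (0.64 ± 0.09), Cenpa (0.55 ± 0.17) and Aurka (0.51 ± 0.11) rose, and Anln (−0.83 ± 0.15), Melk (−0.75 ± 0.08), Kif4 (−0.74 ± 0.13) and Bub1 (−0.60 ± 0.13) fell most. With the mean of all probe sets Cenpa differed by 0.13 and Aurka by 0.06 and neither passed (limma, adjusted p = 0.289 and 0.527), nor did Hmmr (−0.02). Melk and Kif4 did not overlap YAMC, 2 members against 4.18% of all tested genes (2.27% higher and 1.9% lower). The calls of Cdc20, Ect2, Hmmr and Ube2c ended without any 1 of 10, 13, 7 and 1 arrays (limma adjusted p up to 0.103, 0.0935, 0.0738 and 0.0635), the last being YAMC 2.

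The design also asks whether the difference of the double population is the sum of the single ones. The non-additive term is the mp53/Ras difference from bleo/Neo minus the mp53 and the Ras differences, all in log2. It passed for 10 of 37 members, all 10 positive, while 23.9% of all tested genes passed, 11.8% positive and 12.0% negative. The members' median was 0.17 log2, against 0.02 for all tested genes, and 30 of 37 were positive. For Ccnb2 the joint difference was 0.13 and the mp53 and Ras differences were −0.50 and −0.14, leaving 0.77 ± 0.16 log2 (limma, adjusted p = 0.000286). For Cenpa the joint difference was 0.79, and −0.33 in mp53 and 0.32 in Ras cells summed to −0.01, leaving 0.80 ± 0.24 (limma, adjusted p = 0.0124). Birc5 was 0.60 ± 0.14 above the sum, with a rise in mp53/Ras and a fall in mp53 cells. Aurkb (0.56 ± 0.12), Ube2c (0.53 ± 0.15), Nuf2 (0.49 ± 0.13), Kif11 (0.43 ± 0.16) and Pttg1 (0.20 ± 0.07) were of another kind: their joint difference was negative, but less so than the sum of the single ones. Aurka (0.45 ± 0.15) and Bub1b (0.45 ± 0.15) had positive joint differences. The rise of Cdc25b (joint 0.66, sum 0.71) and the falls of Mad2l1 (−0.41 and −0.44) and Mki67 (−0.70 and −0.69) lay within 0.05 log2 of the sum. Over the 46 arrays 10 members passed, all positive, and Aurka and Kif11 were not among them (limma, adjusted p = 0.0807 and 0.0816). Both calls also ended without single arrays, 2 for Aurka (Ras 10 or bleo/Neo 5) and 16 for Kif11, and with Ras 10 and mp53 10 both left out 8 members passed. With the mean of all probe sets Cenpa (0.23), Aurka (0.25) and Pttg1 (0.18) did not pass (limma, adjusted p = 0.228, 0.0692 and 0.108), and with the most variable probe set Bub1b (0.26), Pttg1 (0.35) and Kif11 (0.39) did not. The bleo/Neo mean enters the term with a positive sign, so a high bleo/Neo level raises it, and Aurkb, Ube2c, Kif11 and Pttg1 had their highest mean there, while Nuf2 was higher only in YAMC cells.

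**Figure D4:**
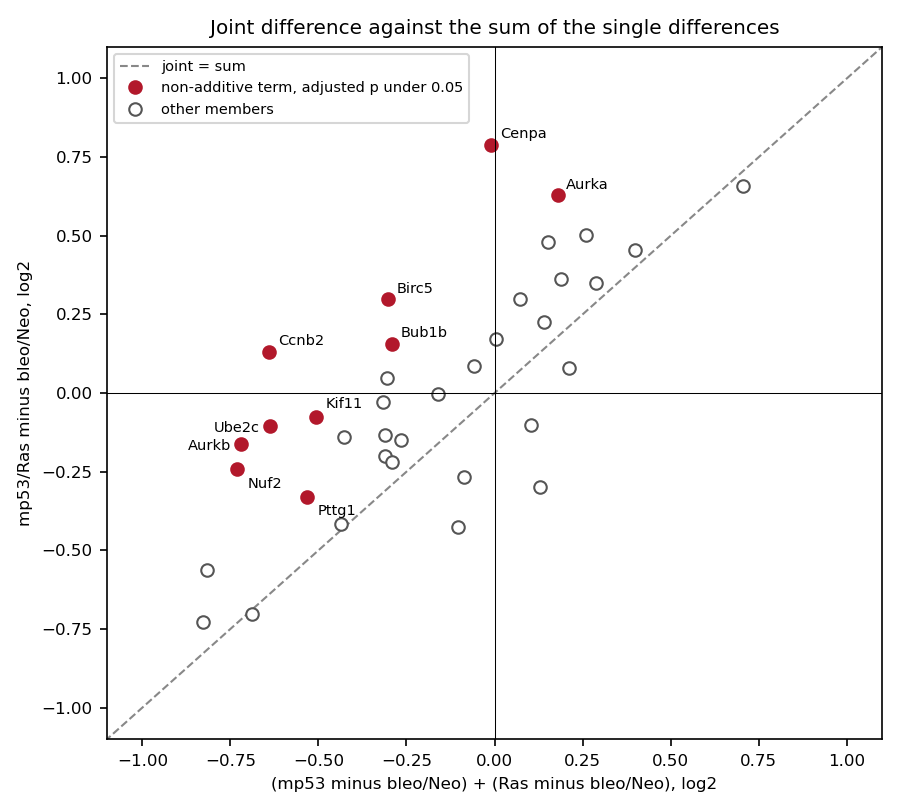
Difference of mp53/Ras from bleo/Neo (vertical axis, log2) against the sum of the mp53 and Ras differences from bleo/Neo (horizontal axis, log2), 1 point for each of 37 genes, with filled points where the non-additive term passed at an adjusted p under 0.05. The 10 filled points all lie above the dashed line of equality, with Cenpa and Ccnb2 furthest from it at 0.80 and 0.77.

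Taken by group means, mp53/Ras was the highest population for 15 members, YAMC for 14 and bleo/Neo for 8, and mp53 and Ras for none. The lowest mean was in mp53 for 17 members, among them Ccna2, Ccnb2, Cdk1, Plk1, Cenpa and Ube2c, in mp53/Ras for 8 (Mad2l1, Pttg1, Kif4, Cenpe, Spc25, Anln, Top2a and Mki67), in Ras for 5, in YAMC for 4 and in bleo/Neo for 3. Averaged over the 37 members, each array's deviation from the gene means was 0.04 ± 0.11 log2 in mp53/Ras, −0.11 ± 0.20 in mp53, −0.02 ± 0.20 in Ras, 0.03 ± 0.16 in bleo/Neo and 0.06 ± 0.15 in YAMC cells (SD, n = 10 arrays each). The ranges overlapped widely: mp53 arrays ran from −0.41 to 0.31, the highest being mp53 8, and mp53/Ras arrays from −0.16 to 0.17.

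**Figure D5:**
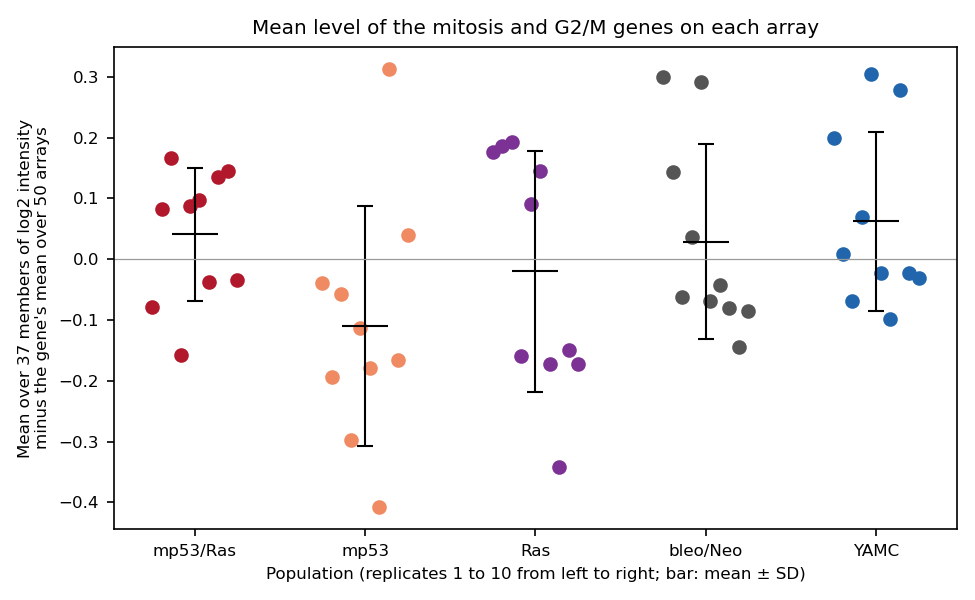
Mean over the 37 genes of log2 intensity minus the gene's mean over 50 arrays (vertical axis), 1 point per array, by population, with the bar at the mean ± SD of 10 arrays. The mp53/Ras arrays span −0.16 to 0.17, within the mp53 range of −0.41 to 0.31.

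The members also varied among replicates of a population. Their median SD was 0.16 log2 in mp53/Ras, 0.26 in mp53, 0.27 in Ras, 0.26 in bleo/Neo and 0.28 in YAMC cells, against 0.15, 0.20, 0.18, 0.21 and 0.22 over all tested genes. For 30 of 37 members mp53/Ras had the smallest SD of the 5 populations. Within populations the members moved together: after subtracting group means, the median Pearson correlation over the 50 arrays was 0.38 for the 666 pairs of members and 564 pairs were positive (84.7%), while pairs of tested genes in general had a median of 0.00. Over the 46 arrays the median was 0.45. These are descriptions, since all pairs share the same arrays. The closest pairs were Cenpf with Top2a (0.89), Kif4 with Hmmr (0.88) and Cenpf with Mki67 (0.87), and Cenpf, Mki67 and Kif20a were closest to the mean of the other members (0.88, 0.86 and 0.85). Cenpa (−0.06), Ube2c (0.04), Mad2l1 (0.07) and Pttg1 (0.12) correlated least with that mean over the 50 arrays. Over the 46 arrays Cenpa (−0.05), Pttg1 (0.04) and Spc25 (0.04) correlated least, and Ube2c and Mad2l1 were at 0.25 and 0.33. Bub1 ran against Ube2c (−0.59, and −0.24 over the 46 arrays) and against Cenpa (−0.58, and −0.43).

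Other mitosis genes, 88 on a list beside the members, of which 81 were tested, ran lower in mp53/Ras than in bleo/Neo cells, with 13 higher and 33 lower against the background of 54.6% and a median of −0.13 log2. Kif18b, a kinesin of spindle positioning, fell by 1.14 log2, and Brca1, a DNA repair gene, and Cenpt, an inner kinetochore protein, by 1.06 each. In mp53 against bleo/Neo cells 1 rose and 17 fell (22.2% of the 81, against 35.4% of all tested genes), and in Ras against bleo/Neo cells 11 rose and 19 fell (30 of the 81, against 41.1%). The non-additive term passed for 16 of the 81 (19.8%, against 23.9%), 14 of them positive: Cdkn3, a Cdk phosphatase, at 0.79, Oip5, a centromere loading factor, at 0.72 and Pimreg at 0.71.

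Of 24 transcriptional regulators of the programme 5 rose and 10 fell in mp53/Ras against bleo/Neo cells (62.5%, against 54.6% of all tested genes). Foxm1, the G2/M activator, averaged 8.90 ± 0.27 log2 in mp53/Ras and 9.07 ± 0.26 in bleo/Neo cells (SD, n = 10 each), and its difference of −0.17 did not pass (limma, adjusted p = 0.239). Mybl2, encoding B-Myb, rose by 0.32 ± 0.11 log2 (limma, adjusted p = 0.00947), and E2f1, an activating E2F, differed by 0.12 without passing. The largest differences were those of Rb1, the retinoblastoma repressor, at −1.77 ± 0.09, Mybl1, encoding A-Myb, at −1.42 ± 0.11, and E2f6, a repressive E2F, at 1.03. Rb1 was at 8.72, 9.09 and 9.34 in mp53/Ras, 10.18, 10.35 and 11.19 in mp53, 9.93, 10.20 and 10.72 in Ras, 10.61, 10.80 and 11.15 in bleo/Neo, and 10.58, 10.96 and 11.16 in YAMC cells, so that all mp53/Ras arrays lay below those of every other population. Nfya, the DNA-binding subunit of NF-Y, rose by 0.60 log2 in mp53 against bleo/Neo cells.

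Among 16 APC/C subunits and coactivators 2 rose and 6 fell in mp53/Ras against bleo/Neo cells (50.0%, against 54.6% of all tested genes). Fzr1, the Cdh1 coactivator of late mitosis and G1, rose by 0.90 ± 0.09 and Anapc16 by 0.89 log2, and Anapc2, the cullin subunit, fell by 0.68. Of 17 genes that halt G2 or respond to stress 3 rose and 9 fell (70.6%, against the same 54.6%), and the median difference was −0.33 log2. Rprm, a p53-induced G2 arrest gene, fell by 1.77 ± 0.19, Gadd45a, a stress gene that restrains Cdk1, by 1.04 ± 0.28 and Btg2, an antiproliferative gene, by 0.59 log2. Cdkn1a, encoding p21, averaged 13.39 ± 0.05 in mp53/Ras, 13.73 ± 0.07 in mp53, 13.66 ± 0.05 in Ras and 13.78 ± 0.06 in bleo/Neo cells (SD, n = 10 each), a fall of 0.39 ± 0.03 log2 in mp53/Ras (limma, adjusted p = 9.39e-15). In mp53 against bleo/Neo cells Cdkn1a differed by −0.05 without passing, and Cdkn1c, encoding the Cdk inhibitor p57, rose by 0.92 log2. Cdkn1c was dim, with means of 6.91 in mp53, 5.985 in bleo/Neo and 6.66 in YAMC cells, where the table median was 6.44. Its bleo/Neo mean was 0.67 below YAMC, and its mp53 mean was 0.25 above YAMC (limma, adjusted p = 1.14e-07 and 0.0486).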

How the data were processed

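Polysomal RNA from 5 cell populations was measured on 50 arrays, 10 each. The authors deposited a table with 1 linear intensity per probe set and array, and RMA is named without a version in the submitters' processing notes; how the log scale was undone is not given in the sources used here. Array medians ran from 86.44 to 86.67, so the arrays had been brought to nearly the same distribution, and only unequal change between genes can be read. Of 45101 probe sets 45037 had values, and 34945 carried exactly 1 gene symbol, 34741 of them matched to RefSeq by gene number.

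Intensities were taken to log2 without an offset, and each gene was read from its probe set with the highest mean. Genes above the table median (6.44) on at least 10 arrays were tested, 12883 of 18193. All arrays entered the same limma model (limma 3.58.1 in R 4.3.3), with a coefficient for every group and an intensity trend, with Benjamini-Hochberg adjustment over all tested genes in each of 10 comparisons. On simulated data for mp53/Ras against bleo/Neo over 12883 genes, 26% of changes of 0.25 log2, 78% of 0.5 and 100% of 1 were recovered, with 5% of calls false. Only 50 genes were changed at each size, far fewer than passed in the real comparison. Residuals were shuffled within each gene separately, which removes shifts shared by the genes of an array. These rates therefore need not hold for the real data.

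The members, roles and other lists were chosen with earlier results of these data known. Levels are given by a rule for the 3 passing members with the largest difference in each comparison, the member with the highest mean of each role, and members whose arrays did not overlap in mp53/Ras against bleo/Neo. Of the other lists, up to 3 passing genes with the largest difference in a comparison are named, and Foxm1, Mybl2, E2f1 and Cdkn1a always. Promoter windows came from RefSeq. Arrays have no read depth, and their number limits the precision. Alternatives were probe set choice, filters, trend, offset, array weights, a replicate block, centring and left-out arrays.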

Additional observations from a re-analysis of the deposited data

Results flagged for a closer look

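In 24 of the 185 combinations of gene and population (13.0%, where chance gives about 5%) the highest or lowest of the 10 arrays stood apart from the others by Dixon's criterion. Of these, 12 involved array mp53 8. It was the highest mp53 array for Mki67 (11.90 log2, others up to 10.47), Top2a (11.82), Anln (11.75), Spc25 (11.45), Bub1 (10.84), Ect2 (10.72), Melk (10.39), Cenpe (10.38), Nuf2 (10.05), Kif23 (9.97) and Ndc80 (9.59), and the lowest for Ube2c (11.36, others at least 11.88).

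Array mp53 5 was the lowest mp53 array for Birc5 (10.19) and Pttg1 (12.92) and the highest for Racgap1 (10.33). Array Ras 10 was the lowest Ras array for Cdk1 (11.53) and Ube2c (11.87), and Ras 8 for Ndc80 (8.05) and Racgap1 (9.31). Array YAMC 2 was the lowest YAMC array for Ccnb2 (9.86) and Ube2c (11.15) and the highest for Cdc25c (9.32). In bleo/Neo cells Ccna2 was lowest on array 10 (9.86) and Prc1 highest on array 1 (10.99).

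The mp53/Ras difference departed from the sum of the mp53 and Ras differences, by the limma test of that term, for 10 members. The departures in log2 were 0.80 for Cenpa, 0.77 for Ccnb2, 0.60 for Birc5, 0.56 for Aurkb, 0.53 for Ube2c, 0.49 for Nuf2, 0.45 for Aurka, 0.45 for Bub1b, 0.43 for Kif11 and 0.20 for Pttg1.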

How the results depend on the processing

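The 141 passing differences of members were refitted under 11 alternatives, giving 1547 values: 1473 kept direction and call, 65 kept direction but no longer passed, and 9 changed sign. The sign changes came with the choice of probe set. With the most variable probe set Pttg1 differed by 0.014 (mp53/Ras against bleo/Neo), 0.002 (Ras against bleo/Neo) and 0.335 (mp53/Ras against YAMC). The last of these passed in the opposite direction (limma, adjusted p = 0.0107). With that choice Prc1 differed by 0.012 (bleo/Neo against YAMC), Aurkb by 0.077 (mp53 against YAMC), and Hmmr by 0.164 (mp53 against YAMC) and 0.081 (Ras against YAMC). With the mean of all probe sets Top2a differed by 0.071 (mp53/Ras against mp53) and Pttg1 by 0.052 (mp53/Ras against YAMC). That mean averages dim probe sets in, and it held 29 of the 65 lost calls.

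Counts of passing members moved by over 1.5 times as follows. Ras against bleo/Neo went to 14 with array weights (9 higher and 5 lower, in place of 2 and 7) and 16 without the 4 arrays nearer to another population, in place of 9. For mp53/Ras against Ras the count was 7 with a replicate block and 12 with array weights, in place of 4. Averaging probe sets gave 9 for bleo/Neo against YAMC (6 higher and 3 lower) in place of 14 and 8 for mp53 against YAMC in place of 13, and array weights gave 23 for the second. The cause was not tested. The labels do not say that replicate numbers pair the samples. Same-numbered arrays of different groups correlated at a median of 0.186 (over 0.1 in 67 of 100 pairs), against −0.024 for differently numbered ones (252 of 900), a hint of pairing from the data and not from the design. The same-numbered array of another group correlated best in 76 of 200 cases, each a choice among 10 arrays, and in every other group for 1 of 50 arrays. The replicate block ended no call and added others. It gave 13 for Ras against bleo/Neo in place of 9, against 45.8% of all tested genes. For bleo/Neo against YAMC it gave 18 in place of 14, and for Ras against YAMC 20 in place of 16 (41.8% and 47.7% of all tested genes). The count for the non-additive term stayed at 10.

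Leaving out each array in turn, the counts ranged from 16 to 20 (mp53/Ras against bleo/Neo), 11 to 15 (mp53 against bleo/Neo), 7 to 14 (Ras against bleo/Neo), 18 to 21 (mp53/Ras against mp53), 3 to 6 (mp53/Ras against Ras), 10 to 17 (bleo/Neo against YAMC), 22 to 25 (mp53/Ras against YAMC), 8 to 14 (mp53 against YAMC), 13 to 19 (Ras against YAMC) and 8 to 12 (non-additive term). This ended 35 of the 141 calls at least once and reversed none. The refits that leave out single arrays, and the correlations over 46 arrays, were chosen after seeing the data.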
